A study of Mus musculus with 6 samples.

Results

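Lymphatic endothelial nuclei of mouse subcutaneous white adipose tissue were picked from single-nucleus RNA sequencing by their transcripts. A nucleus was taken as lymphatic when it held at least 1 UMI (unique molecular identifier, 1 counted RNA molecule) of at least 3 of Prox1, Mmrn1, Reln, Flt4, Pkhd1l1 and Ccl21a, after barcodes with fewer than 500 detected genes or over 5% mitochondrial UMIs had been left out. The rule found 164 nuclei among 61496 kept nuclei and 65162 deposited barcodes. Of these, 122 came from 3 GPSM1ΔTreg libraries and 42 from 3 GPSM1f/f libraries.

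GPSM1ΔTreg mice lack, by the name of the genotype, the G-protein signalling modulator gene Gpsm1 in regulatory T cells, and GPSM1f/f mice carry the floxed gene without that deletion. Both groups carry the floxed allele, and all mice were fed high-fat chow from the age of 7 weeks, with 12 weeks as the length in the sample labels and 5 to 12 weeks in the protocol, at 3 mice per genotype. The labels name neither the Cre driver nor the deleted exons nor the sex of the mice. Nuclei were isolated on a sucrose gradient, stained with DAPI, sorted and made into droplet libraries with 3′ UMI counting. The 6 libraries held 38857282 to 41951373 UMIs in GPSM1ΔTreg and 45007561 to 55342903 in GPSM1f/f. Since a library was 1 replicate, p-values below weigh differences against the spread between libraries. Tests that compare the nuclei types take the library as a block and rest on the scatter left after it.

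Lymphatic endothelial cells line the blind-ended capillaries and the collecting vessels that drain fluid, lipid and immune cells from tissue to lymph nodes. The transcription factor PROX1 sets and keeps their identity, and VEGF-C acting on the receptor VEGFR3, the product of Flt4, drives their growth. In fat depots these vessels carry dendritic cells and lymphocytes toward the draining node, guided by the chemokine CCL21, and inside the node the same lineage lines the sinuses through which lymph is filtered.

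The 3 GPSM1ΔTreg libraries gave 38, 44 and 40 lymphatic nuclei (libraries 1, 2 and 3), and the 3 GPSM1f/f libraries gave 27, 5 and 10. The lymphatic nuclei of the GPSM1ΔTreg libraries summed to 169879, 143199 and 146974 UMIs, and those of the GPSM1f/f libraries to 99174, 14888 and 45525. GPSM1f/f libraries 2 and 3 therefore carried few nuclei, and every level given for them is coarse. Median UMIs per lymphatic nucleus were 3577.5, 2668 and 2699.5 in GPSM1ΔTreg and 3039, 2759 and 3500 in GPSM1f/f, so that depth per nucleus overlapped between the genotypes. Gpsm1 itself, whose deletion is meant for regulatory T cells, was at 41.2, 41.9 and 34.02 CPM (UMIs per 1e6 summed UMIs) in lymphatic nuclei of GPSM1ΔTreg libraries and at 30.2, 201.5 and 22.0 CPM in those of GPSM1f/f libraries, and the groups overlapped. These values do not check the genotype labels, since the deletion is in another cell type. No barcode was shared between libraries among the lymphatic nuclei, while any pair of libraries shared 24 to 44 barcodes over all nuclei.

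The genes of the rule chose the nuclei, and their levels are a description. Mmrn1, which encodes the matrix protein multimerin 1, was detected in 88.4% of the 164 nuclei, Prox1 in 81.7%, Flt4 in 80.5%, Reln, the gene for the secreted glycoprotein reelin, in 75.0%, Pkhd1l1 in 67.1% and Ccl21a in 34.1%. In nuclei that met a rule for blood endothelium (at least 3 of Flt1, Cyyr1, Btnl9, Gpihbp1, Cd300lg, Emcn and Rgcc, and not lymphatic; 4564 nuclei) the same genes were found in 0.5% for Mmrn1, for Prox1 and for Reln, 0.8% for Pkhd1l1, 0.6% for Ccl21a and 7.7% for Flt4. Prox1 stood at 600, 831 and 721 CPM (UMIs per 1e6 summed UMIs of the lymphatic nuclei of a library) in GPSM1ΔTreg libraries and at 625, 1075 and 461 CPM in GPSM1f/f libraries. The genotypes overlapped for Prox1, and they overlapped for the summed level of all 6 genes, which was 5651 to 8478 CPM in GPSM1ΔTreg and 3163 to 10545 CPM in GPSM1f/f.

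Ccl21a was the most uneven of the 6. It stood at 565, 691 and 129 CPM in GPSM1ΔTreg and at 403, 2955 and 308 CPM in GPSM1f/f, where the high value came from 5 nuclei. Near-identical copies of this chemokine gene exist in the mouse, so its counts are uncertain. Lymphatic nuclei held 11.6, 25.5 and 2.56% of all Ccl21a UMIs of kept nuclei in the GPSM1ΔTreg libraries and 80.0, 93.6 and 12.7% in the GPSM1f/f libraries. Most Ccl21a UMIs of the GPSM1ΔTreg libraries thus lay outside the lymphatic nuclei. For Mmrn1 the shares inside them were 75.6, 91.4 and 82.5% in GPSM1ΔTreg and 86.1, 29.8 and 36.5% in GPSM1f/f, so that in GPSM1f/f libraries 2 and 3 most Mmrn1 UMIs lay in nuclei that did not meet the rule.

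On mm10, as annotated in GENCODE vM21, Prox1 lies at chr1:190118035-190170714, Mmrn1 at chr6:60924976-60989378, Reln at chr5:21884454-22344702, Flt4 at chr11:49609263-49652739, Pkhd1l1 at chr15:44457494-44601369 and Ccl21a at chr4:42772860-42773993. The counts are sums over whole genes, so no exon or untranslated region can be singled out.

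The threshold of 3 genes lay inside a continuum. Exactly 3 of the genes were found in 52 nuclei, 4 in 43, 5 in 42 and all 6 in 27. Just outside the rule, 119 nuclei held exactly 2. At least 2 lymphatic genes outside the rule were present in 96.2% of the nuclei with exactly 3 and in 72.3% of those with exactly 2. The adipocyte signature (at least 5 of 10 adipocyte genes) was present in 2 of the 52 nuclei with 3 genes and in 19 of the 119 with 2.

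Lymphatic genes that the rule did not use were mostly higher in lymphatic nuclei. Their list and the lists below were chosen with earlier results of these data known. They are not independent support for the label. Of 12 further genes known from lymphatic endothelium, 10 could be tested against blood endothelial nuclei of the same libraries, and 9 were higher in lymphatic nuclei. Over all 7737 tested genes outside the 2 rules, 6.54% were higher and 8.62% lower in lymphatic nuclei (edgeR quasi-likelihood test with the library as a block, adjusted p at most 0.05). Lyve1, the hyaluronan receptor gene used to stain lymphatic capillaries, stood at 406, 642 and 469 CPM in GPSM1ΔTreg and at 373, 537 and 351 CPM in GPSM1f/f lymphatic nuclei, against a mean of 5.28 ± 1.79 CPM in blood endothelial nuclei (SD, n = 6 libraries). The log2 fold change of Lyve1, lymphatic over blood, was 6.34 ± 0.31 (SE), with an adjusted p of 1.40e-15 in edgeR. Sema3d, a secreted guidance protein gene, was at 6.31 ± 0.30, Tbx1, a transcription factor gene needed for lymphatic development in mice, at 6.57 ± 0.48, and Pdpn, the gene of the surface glycoprotein podoplanin, at 3.54 ± 0.38. Nr2f2, whose product COUP-TFII induces Prox1, was at 2.50 ± 0.22, Maf at 3.09 ± 0.23 and Nrp2, a VEGF-C co-receptor gene, at 1.06 ± 0.21. Sox18, the exception, was at -0.87 (adjusted p = 0.18).

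**Figure D1:**
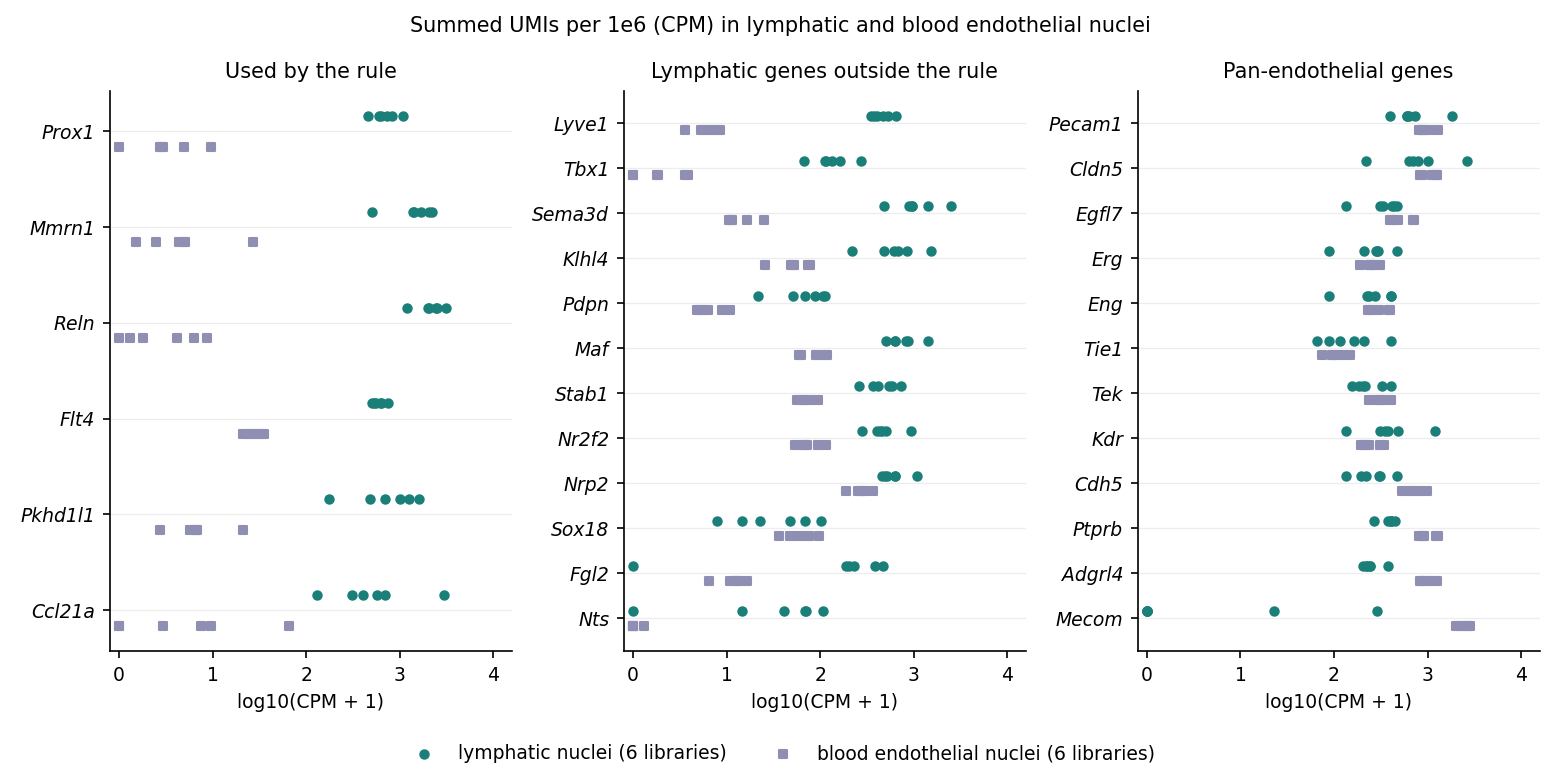
Summed level as log10(CPM + 1) of the 6 rule genes (left), 12 other lymphatic genes (middle) and 12 pan-endothelial genes (right), with 1 point per library for lymphatic nuclei (circles) and blood endothelial nuclei (squares). Lyve1, Tbx1 and Sema3d did not overlap between the nuclei types, while Pecam1 did, and Mecom was found in 2 of the 164 lymphatic nuclei.

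Pan-endothelial genes were shared, with 4 of 12 lower in lymphatic nuclei, none higher and 8 not passing. Pecam1, the gene of the adhesion molecule CD31, was detected in 81.1% of lymphatic and 81.3% of blood endothelial nuclei. Cdh5, which encodes VE-cadherin of the adherens junction, was lower at -1.60 ± 0.25 log2 (adjusted p = 1.08e-05 in edgeR), as were Ptprb, Adgrl4 and Mecom. Mecom, a transcription factor gene of arterial and haematopoietic cells, was detected in 85.5% of blood endothelial nuclei but in 2 lymphatic nuclei, 1 of which held 49 of its 50 UMIs. Blood endothelial rule genes were not absent: 15, 17 and 13 lymphatic nuclei of the GPSM1ΔTreg libraries and 13, 2 and 1 of the GPSM1f/f libraries also met the blood rule.

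The 11 genes described next were among the 12 with the greatest excess in lymphatic nuclei and included an ion channel, transcription factors and guidance genes. Scn3a, which encodes a pore-forming subunit of a voltage-gated sodium channel, had 16, 21 and 13 UMIs in GPSM1ΔTreg and 14, 2 and 1 UMIs in GPSM1f/f lymphatic nuclei, against 1 UMI in all blood endothelial nuclei together. Its pooled ratio, 67 UMIs in lymphatic nuclei over that 1, was 1755 with a 95% counting interval of 304 to 70323. The interval covers counting error only.

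Foxp2, a forkhead transcription factor gene, gave the highest level among the 11. It averaged 1888 CPM in lymphatic and 20.9 CPM in blood endothelial nuclei, a log2 fold change of 6.39 ± 0.31 (adjusted p = 1.41e-13 in edgeR). Sema3a, a class 3 semaphorin gene with a known role in lymphatic valve formation in mice, averaged 1082 ± 551 CPM against 15.4 ± 5.91 CPM (SD, n = 6 libraries), a log2 fold change of 6.02 ± 0.25. Gpm6a, a neuronal membrane glycoprotein gene that also marks mesothelium, was at 5.81 ± 0.44, with the other 7 mesothelial genes of the list at 0 UMIs in lymphatic nuclei. The remaining genes were Apba2, Kif26b, Sh3gl3, Tbx1, Slc45a3, Lyve1 and Sema3d, with log2 fold changes from 6.31 to 8.47, and each of the 11 was higher in lymphatic nuclei in 6 of 6 libraries.

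The 12 genes most depleted from lymphatic nuclei were led by genes with no UMI there. Lnx1, a ubiquitin ligase gene, had 0 UMIs in 164 lymphatic nuclei and 9754 UMIs in blood endothelial nuclei. With 3 counts over all lymphatic UMIs as the floor, Lnx1 was at least 124-fold lower in lymphatic nuclei. Car4, the gene of the capillary enzyme carbonic anhydrase 4, was at least 35.9-fold lower on the same floor, and Lrrc36 at least 26.8-fold lower. Dach1, a transcription factor gene of arterial endothelium, had 1 UMI against 17708 UMIs in blood endothelial nuclei, which makes it 676-fold lower with a counting interval of 121 to 26710. Abcb1a, which encodes the P-glycoprotein drug pump of capillaries, Sparcl1, Vwa3a, Sox17, an arterial transcription factor gene, and Efnb1 each held 1 to 3 UMIs in lymphatic nuclei. Jam2, the gene of a tight junction adhesion molecule, held 4 UMIs and Ccdc85a held 21.

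**Figure D2:**
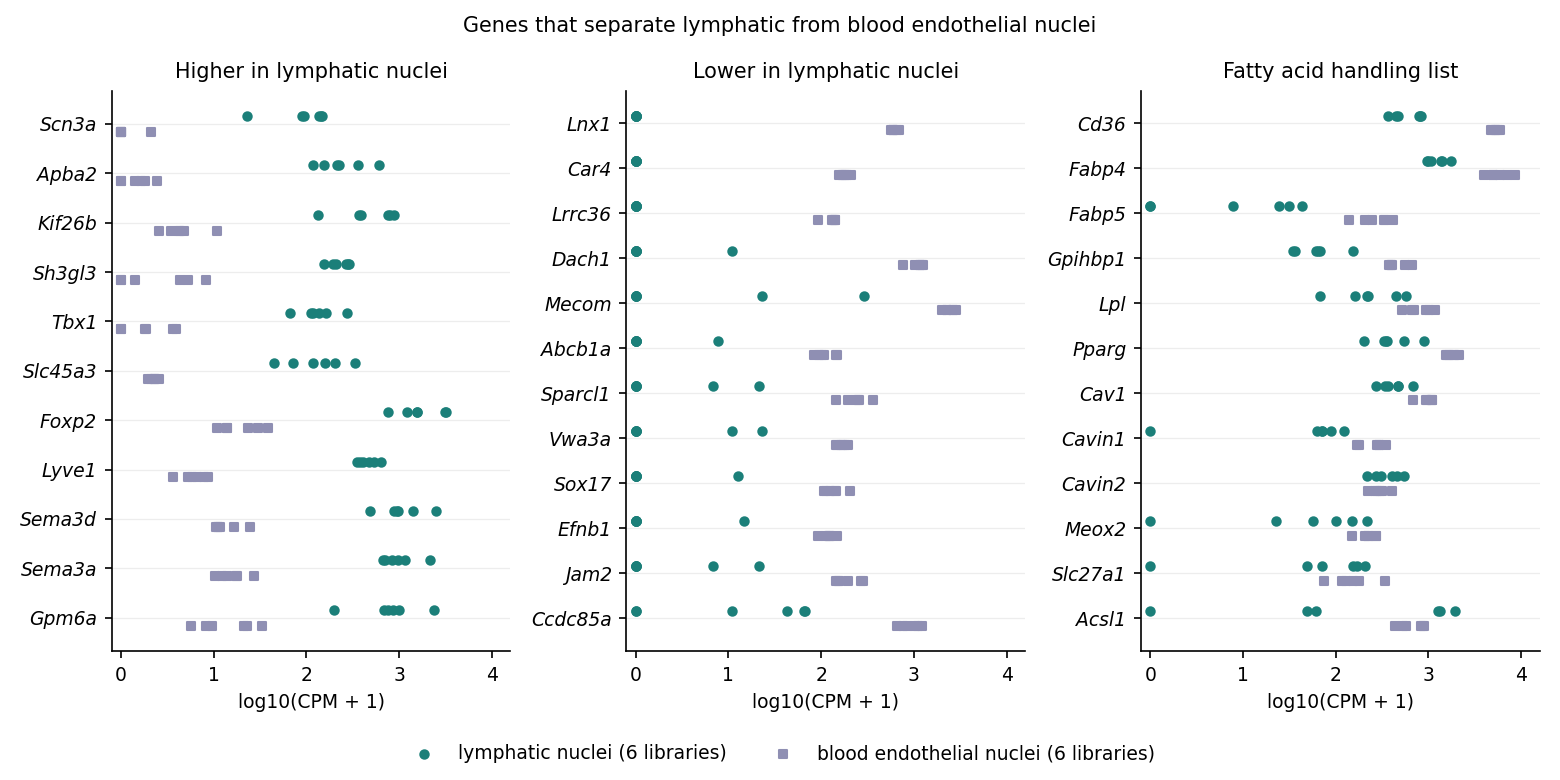
Summed level as log10(CPM + 1) of 11 named genes higher (left) and the 12 lower (middle) in lymphatic than in blood endothelial nuclei, and of 12 fatty acid handling genes (right), 1 point per library. The named genes separate the nuclei types in all 6 libraries, and Cd36, Fabp4 and Pparg stand below blood endothelium in each library, while Cavin2 and Acsl1 overlap. Gpihbp1 is a gene of the blood rule and is shown as a description.

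Fatty acid handling genes were lower as a group. The blood rule, which includes Gpihbp1 of this list, did not separate capillaries from larger vessels, and its part was not tested. Of 13 tested genes outside the rules, 8 were lower, none was higher and 5 did not pass, with a median log2 fold change of -1.23, beside -0.09 over all tested genes. Cd36, the fatty acid translocase gene, averaged 619 ± 213 CPM in lymphatic and 5251 ± 460 CPM in blood endothelial nuclei (SD, n = 6 libraries), at -3.20 ± 0.24 log2 (adjusted p = 1.23e-11 in edgeR). Fabp5, a fatty acid binding protein gene, was at -3.76 ± 0.35, Fabp4 at -2.29 ± 0.23 and Pparg, the nuclear receptor gene of adipocytes and capillary endothelium, at -2.05 ± 0.26. Adipocyte transcripts were present in both nuclei types: the 10 adipocyte genes summed to 873 to 10456 CPM in lymphatic nuclei and 3153 to 8924 CPM in blood endothelial nuclei, and their part in this result was not tested.

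In the VEGF-C list, 3 of 11 tested genes were higher, 1 was lower and 7 did not pass. Itga9, the integrin alpha 9 gene needed for lymphatic valves in mice, averaged 640 CPM in lymphatic and 48.4 CPM in blood endothelial nuclei (log2 fold change 3.59 ± 0.22, adjusted p = 1.06e-13 in edgeR). Ptpn14, a phosphatase gene that restrains VEGFR3 in mice, was at 1.76 ± 0.23. The ligand gene Vegfc itself was found in 2 of 164 lymphatic nuclei and in 14.4% of blood endothelial nuclei, at -2.99 ± 0.58 (adjusted p = 0.00137 in edgeR). Kdr, which encodes VEGFR2, did not pass, at 0.59 (adjusted p = 0.15).

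Genes for leukocyte traffic split in both directions, with 5 of 12 tested genes higher, 2 lower and 5 not passing. Il7, the cytokine gene that sustains lymphocytes, averaged 167 ± 106 CPM in lymphatic and 4.83 ± 2.25 CPM in blood endothelial nuclei (SD, n = 6 libraries), at 5.05 ± 0.40 log2 (adjusted p = 1.20e-10 in edgeR). Spns2, the exporter gene for sphingosine 1-phosphate in lymph, was at 1.41 ± 0.27, and Ackr3, a scavenging receptor gene for CXCL12 and adrenomedullin, at 1.34 ± 0.24. Cxcl12 was lower at -3.30 ± 0.37, and S1pr1, the sphingosine 1-phosphate receptor gene, at -1.41 ± 0.27.

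In the junction list, Jam3 was higher in 5 of 6 libraries (2.72 ± 0.51, adjusted p = 0.00779 in edgeR), Cdh5, Tjp1, Esam, Jam2 and Afdn were lower and 7 of 13 did not pass. Of 18 tested guidance and matrix genes outside the rules, 8 were higher, 5 were lower and 5 did not pass. Besides Sema3a, Sema3d and Nrp2, the higher ones were the guidance receptor genes Robo1 and Plxna4, the ephrin gene Efnb2 and the laminin chain genes Lama4 and Lamb1, with log2 values of 0.65 for Efnb2 to 1.72 for Robo1. Lama4, detected in 90.2% of lymphatic nuclei, was at 1.69 ± 0.22, whereas the basement membrane collagen genes Col4a1 and Col4a2 were at -1.72 and -1.82 (adjusted p = 0.0014 and 0.00065 in edgeR). Nrp1, a VEGF and semaphorin co-receptor gene, was at -3.61 ± 0.29, and Robo4 and Slit3 were lower too. Of 14 tested TGF-beta, BMP and Notch genes, 10 did not pass, Smad1, a BMP signal transducer gene, was higher at 1.30 ± 0.23, and Bmp6, Smad7 and Notch4 were lower at -3.32 ± 0.30, -2.08 ± 0.37 and -3.76 ± 0.60. In the adenosine list, which touches the CD73 named in the series title, Entpd1, the gene of the ATP-hydrolysing enzyme CD39, was at -3.14 ± 0.35 and the receptor gene Adora2a at -1.77 ± 0.50 (adjusted p = 0.0115 in edgeR). Nt5e, the CD73 gene, was found in 5 of 164 lymphatic nuclei and could not be tested.

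Of 10 tested valve and collecting vessel genes, 6 were higher in lymphatic nuclei, none was lower and 4 did not pass. At least 2 of the 14 genes were found in 92.1, 93.2 and 90.0% of lymphatic nuclei in GPSM1ΔTreg and in 92.6, 100 and 80.0% in GPSM1f/f, but also in 52.1 to 63.9% of blood endothelial nuclei, so the list does not mark valves in these data. The difference of 0.898 percentage points between the genotypes had an exact two-sided permutation p of 0.9. Foxc2, the forkhead gene that defines valve cells, was detected in 6 nuclei and Cldn11, a valve claudin gene, in 11. Celsr1, a planar polarity gene of valve cells, was at 3.53 ± 0.57 log2 against blood endothelium (adjusted p = 6.95e-05 in edgeR), and the calcineurin-regulated factor gene Nfatc1 at 1.62 ± 0.26.

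Between the genotypes, lymphatic nuclei took a larger share of kept nuclei in each GPSM1ΔTreg library than in any GPSM1f/f library. The share was 0.355, 0.428 and 0.391% in GPSM1ΔTreg libraries 1, 2 and 3, and 0.266, 0.0504 and 0.0979% in GPSM1f/f libraries 1, 2 and 3. The 95% exact Clopper-Pearson intervals, which cover counting error only, were 0.251 to 0.487% for GPSM1ΔTreg library 1 and 0.176 to 0.387% for GPSM1f/f library 1, and these overlapped. The means were 0.391 ± 0.036% and 0.138 ± 0.114% (SD, n = 3 each), a difference of 0.253 percentage points with an exact two-sided permutation p of 0.1, the smallest that 3 against 3 libraries allow. More cells of the type and a better recovery of their nuclei cannot be told apart.

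Blood endothelial nuclei went the other way. They were 2.70, 5.58 and 4.84% of kept nuclei in GPSM1ΔTreg and 9.57, 9.17 and 12.98% in GPSM1f/f (exact two-sided permutation p = 0.1). Lymphatic nuclei were therefore 11.6, 7.12 and 7.46% of the nuclei meeting either endothelial rule in GPSM1ΔTreg, against 2.71, 0.547 and 0.749% in GPSM1f/f. These groups did not overlap either, with a difference of 7.40 percentage points (exact two-sided permutation p = 0.1).

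Lymphocyte transcripts also differed between the genotypes. Nuclei with at least 2 of 10 B cell genes made up 47.5, 15.8 and 32.4% of kept nuclei in GPSM1ΔTreg and 4.73, 3.62 and 13.9% in GPSM1f/f. Within a genotype their order did not follow the lymphatic share of kept nuclei, a denominator that holds these nuclei. That share was lowest in library 1 among GPSM1ΔTreg libraries and highest in library 1 among GPSM1f/f libraries. As a share of nuclei meeting either endothelial rule, the GPSM1ΔTreg order (11.6, 7.12 and 7.46%) was that of the B cell shares. The GPSM1f/f order (2.71, 0.547 and 0.749%) was not. Among the lymphatic nuclei, 8, 4 and 9 in GPSM1ΔTreg and 0, 0 and 2 in GPSM1f/f held at least 2 B cell or at least 2 T and NK cell genes. With those lymphatic nuclei left out, the share of kept nuclei was 0.280, 0.389 and 0.303% in GPSM1ΔTreg and 0.266, 0.0504 and 0.0783% in GPSM1f/f. With all lymphatic nuclei counted over the kept nuclei without such lymphocyte genes, it was 0.701, 0.489 and 0.516% in GPSM1ΔTreg and 0.289, 0.0533 and 0.0939% in GPSM1f/f. The groups did not overlap in either case. The labels do not say whether the lymph node that lies in this depot was dissected out, and its part in these shares was not tested.

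**Figure D3:**
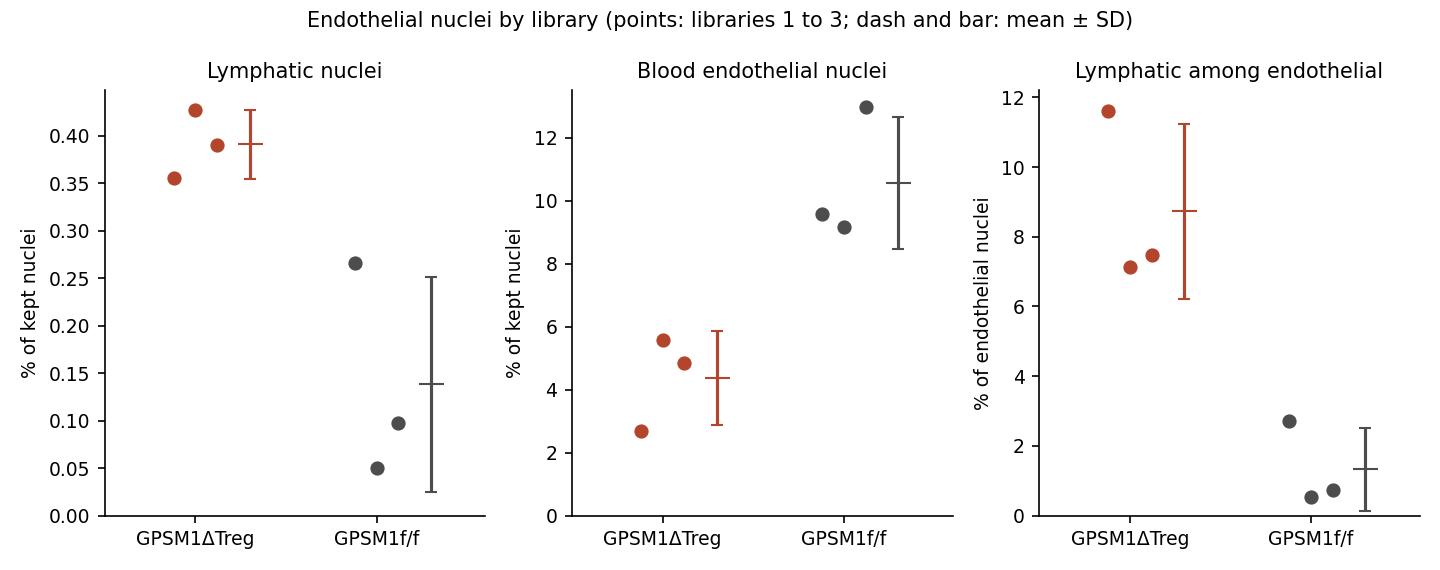
Lymphatic nuclei as % of kept nuclei (left), blood endothelial nuclei as % of kept nuclei (middle) and lymphatic nuclei as % of nuclei meeting either endothelial rule (right), with 1 point per library and the mean ± SD of 3 libraries beside them. GPSM1ΔTreg libraries lie above GPSM1f/f libraries in the left and right panels and below them in the middle panel.

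Within the lymphatic nuclei, a subset carried genes of lymph node sinus endothelium. Stab2, a scavenger receptor gene of sinus-lining endothelium, was detected in 14, 9 and 14 nuclei of the GPSM1ΔTreg libraries and in 0, 0 and 3 of the GPSM1f/f libraries. These were 36.8, 20.5 and 35.0% in GPSM1ΔTreg and 0, 0 and 30.0% in GPSM1f/f, so the shares overlapped through GPSM1f/f library 3. In both genotypes the library with the highest Stab2 share also had the highest share of kept nuclei with B cell genes. The B cell shares were 47.5, 15.8 and 32.4% in GPSM1ΔTreg and 4.73, 3.62 and 13.9% in GPSM1f/f. A link between the Stab2 and B cell shares was not tested. The level of Stab2 was 1166, 649 and 1415 CPM in GPSM1ΔTreg and 0, 0 and 505 CPM in GPSM1f/f, which did not overlap, and the fitted log2 value of 2.59 ± 1.22 had an unadjusted p of 0.073 in edgeR. On the floor of 3 counts, 0 of 27 nuclei in GPSM1f/f library 1 limits the share of nuclei with a Stab2 UMI to 11.1%, and 0 of 5 in library 2 limits it to 60.0%, which bounds detection at this depth and not expression. In blood endothelial nuclei Stab2 was found in 0.44 to 1.73% per library. Marco, a macrophage scavenger receptor gene that in mouse nodes also marks medullary sinus lining, was found in 11, 1 and 5 nuclei in GPSM1ΔTreg and in 0, 0 and 3 in GPSM1f/f.

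Nuclei with Stab2 formed a distinct profile. Of the 40 such nuclei, 47.5% also had Marco, against 0.806% of the 124 nuclei without Stab2. Lyve1 was found in 77.5% of nuclei with Stab2 and in 37.9% of those without. Fgl2, a secreted fibrinogen-like protein gene, had the opposite pattern, with 10.0% and 51.6%. Pkhd1l1 was found in 10.0% and 85.5%, and Ccl21a in 7.50% and 42.7%. No nucleus with Marco had Pkhd1l1, Ccl21a or Fgl2. Prox1 differed little, with 87.5% and 79.8%. Median UMIs were 3539.5 with Stab2 and 2964.5 without, and Pkhd1l1, Ccl21a and Prox1 are rule genes, so these shares are a description and were not tested.

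Of the 17 sinus genes on the list, Madcam1 and Ccl20 had 0 UMIs in the 164 nuclei. This limits the share of nuclei with a UMI, not of nuclei expressing the gene, to 1.83%. Ptx3, the pentraxin gene of paracortical sinuses, was found in 0, 5 and 2 nuclei in GPSM1ΔTreg and in none in GPSM1f/f. At least 2 of the 17 genes were present in 52.6, 29.5 and 40.0% of lymphatic nuclei in GPSM1ΔTreg and in 11.1, 40.0 and 60.0% in GPSM1f/f (difference 3.69 percentage points, exact two-sided permutation p = 1). That count also passed in 13.4 to 23.1% of blood endothelial nuclei and 42.8 to 60.3% of adipocyte nuclei, and Itih5, 1 of its genes, was found in 84.5% of adipocyte and 19.5% of lymphatic nuclei, so the list is not selective.

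Of the 40 nuclei with Stab2, 37 came from GPSM1ΔTreg libraries, so leaving them out can only lower the lymphatic share there, and the values without them are a description chosen after seeing the data. They were 0.224, 0.340 and 0.254% of kept nuclei in GPSM1ΔTreg and 0.266, 0.0504 and 0.0685% in GPSM1f/f, with overlap through GPSM1f/f library 1. As a share of endothelial nuclei they were 7.67, 5.75 and 4.98% in GPSM1ΔTreg and 2.71, 0.547 and 0.525% in GPSM1f/f, without overlap.

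**Figure D4:**
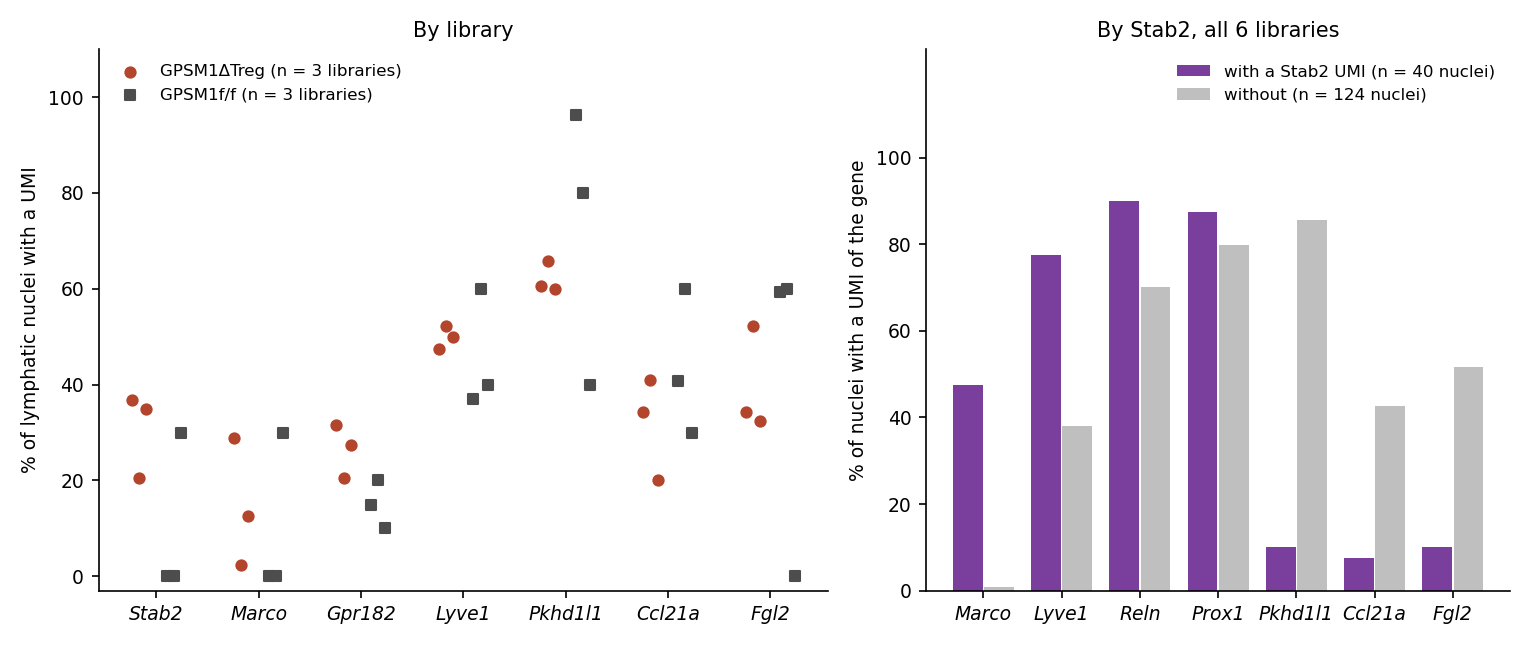
Left, % of lymphatic nuclei of each library with a UMI of 7 genes, GPSM1ΔTreg (circles) and GPSM1f/f (squares). Right, % of lymphatic nuclei with a UMI of each gene among the 40 with Stab2 and the 124 without, where Marco is nearly confined to the nuclei with Stab2 and Pkhd1l1, Ccl21a and Fgl2 are rare there.

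No gene passed between the genotypes within lymphatic nuclei. Of 2858 tested genes outside the rule, 0 (0.0%) had an adjusted p at most 0.05 in edgeR. An unadjusted p under 0.05 was reached by 90 (3.15%), of which 53 (1.85%) were higher and 37 (1.29%) lower, and 286 (10.0%) did not overlap between the groups. DESeq2 called 1 gene, and edgeR called 24 without GPSM1f/f library 3. The genes named next met the unadjusted threshold without overlap, at a mean of at least 50 CPM in 1 group, and did not pass the adjustment. Por, the gene of cytochrome P450 oxidoreductase, had the lowest p. It stood at 318, 342 and 816 CPM in GPSM1ΔTreg and at 20.2, 67.2 and 43.9 CPM in GPSM1f/f (log2 fold change 3.86 ± 0.62, adjusted p = 0.269 in edgeR). In GPSM1ΔTreg library 3, however, 117 of the 120 Por UMIs lay in 1 nucleus. Without the leading nucleus of each library the GPSM1ΔTreg levels were 147, 230 and 20.4 CPM and those of GPSM1f/f 10.1, 0 and 0 CPM. The GPSM1f/f libraries held 2, 1 and 2 Por UMIs in all, so their values had to fall to or near 0.

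Tnfsf10, C3 and Iigp1 were spread over more nuclei than Por. Tnfsf10, the gene of the death ligand TRAIL, was at 111.8, 90.8 and 170 CPM in GPSM1ΔTreg and 20.2, 67.2 and 0 CPM in GPSM1f/f, from 33 of 122 and 3 of 42 nuclei. Its pooled ratio, GPSM1ΔTreg over GPSM1f/f, was 6.59 with a counting interval of 2.14 to 32.9. This interval and that of C3 cover counting error only and leave out the spread between libraries. C3, the complement component gene, was found in 32 of 122 and 3 of 42 nuclei, with a pooled ratio of 7.05 and a counting interval of 2.30 to 35.1. In GPSM1ΔTreg library 2, 1 nucleus held 12 of the 21 C3 UMIs. Iigp1, an interferon-inducible GTPase gene, was at 271, 83.8 and 517 CPM in GPSM1ΔTreg and 30.2, 67.2 and 43.9 CPM in GPSM1f/f, from 36 of 122 and 5 of 42 nuclei (log2 fold change 2.87 ± 0.80, unadjusted p = 0.00537 in edgeR). Gm4951, Lsamp, Nnat and Nr5a2, a nuclear receptor gene, completed the 8 genes on the higher side, with fitted log2 values of 3.20, 4.59, 2.98 and 2.57. For Nr5a2 the counts were 56 UMIs in GPSM1ΔTreg and 3 in GPSM1f/f. Lsamp was found in 16 GPSM1ΔTreg nuclei, and 1 nucleus held 86 of the 114 Nnat UMIs of GPSM1ΔTreg library 2.

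In GPSM1ΔTreg, all 8 genes averaged more in lymphatic nuclei with at least 2 sinus genes than in those with fewer, but in library 1 Lsamp and in library 2 Iigp1 went the other way. Nr5a2 averaged 221 CPM in nuclei with at least 2 sinus genes and 4.35 CPM in those with fewer in GPSM1ΔTreg, and 27.9 and 0 CPM in GPSM1f/f. Gm4951 averaged 409 and 28.3 CPM in GPSM1ΔTreg, and 9.30 and 11.1 CPM in GPSM1f/f. Iigp1 averaged 454 and 82.4 CPM in GPSM1ΔTreg, and 64.7 and 11.1 CPM in GPSM1f/f. Among nuclei with at least 2 sinus genes, the means of all 8 genes were higher in GPSM1ΔTreg than in GPSM1f/f. The 8 genes were picked as higher in GPSM1ΔTreg, so this is a description. The share of nuclei with at least 2 sinus genes, by a list that is not selective, was 40.7 ± 11.6% in GPSM1ΔTreg and 37.0 ± 24.6% in GPSM1f/f (SD, n = 3 each). Nuclei with Stab2 were 37 of 122 in GPSM1ΔTreg and 3 of 42 in GPSM1f/f. Lymphatic nuclei of both genotypes with at least 2 sinus genes held a median of 3757 UMIs, and those with fewer 2672. Nuclei marked as doublets were kept, and in GPSM1ΔTreg they were more frequent among nuclei with at least 2 sinus genes. The parts of doublets, of single nuclei and of the make-up of the lymphatic nuclei in these differences were not tested. The GPSM1f/f means rest on 11 nuclei with at least 2 sinus genes.

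On the lower side were Chrm2, Tox, Dstyk, Pogz, Ctsb, Itga6, Me1 and Maml3. Chrm2, the muscarinic receptor 2 gene, was at 53.0, 34.9 and 13.6 CPM in GPSM1ΔTreg and 161, 134 and 373 CPM in GPSM1f/f (-2.68 ± 0.59, unadjusted p = 0.00105 in edgeR). In GPSM1f/f library 3, 14 of the 17 Chrm2 UMIs lay in 1 nucleus. Without the leading nucleus of each library the levels were 29.4, 20.9 and 6.80 CPM in GPSM1ΔTreg and 110.9, 0 and 65.9 CPM in GPSM1f/f. These overlapped through GPSM1f/f library 2, whose 2 Chrm2 UMIs lay in 1 nucleus, so that the 0 was fixed by the removal. All 13 Me1 UMIs of GPSM1f/f library 3 lay in 1 nucleus. Itga6, the laminin-binding integrin alpha 6 gene, was at 88.3, 119 and 54.4 CPM in GPSM1ΔTreg and 171, 134 and 308 CPM in GPSM1f/f, at -1.26 ± 0.47. Ctsb, the cathepsin B gene, was at -1.28 ± 0.41. For the low counts of GPSM1f/f library 2, 134 CPM stands for 2 UMIs.

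**Figure D5:**
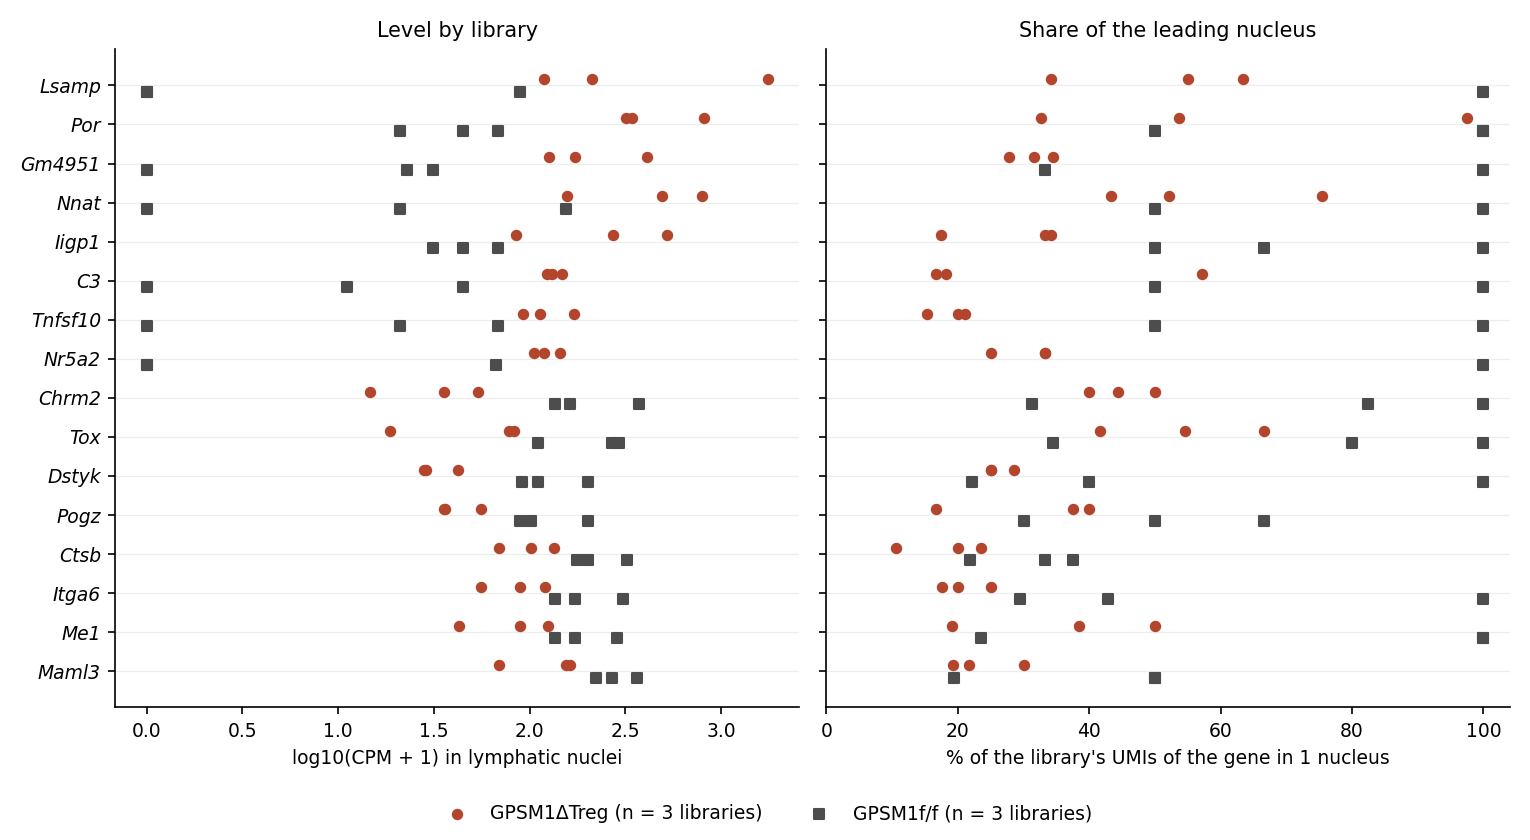
The 16 named genes between genotypes in lymphatic nuclei. Left, level as log10(CPM + 1), and right, the % of the library's UMIs of the gene that lie in its leading nucleus, for 3 GPSM1ΔTreg libraries (circles) and 3 GPSM1f/f libraries (squares). For Por in GPSM1ΔTreg library 3 this share is 97.5%, while for Tnfsf10 it is 15.4 to 21.1% in the GPSM1ΔTreg libraries.

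Gene lists gave no call between the genotypes. Of 7 tested genes for antigen presentation and interferon response, 5 were positive and 2 negative, with a median log2 fold change of 0.49, beside 0.02 and 52.4% positive over all tested genes. H2-K1, an MHC class I gene, was at 0.80 ± 0.34 (unadjusted p = 0.0417 in edgeR), with overlapping groups. In blood endothelial nuclei of the same libraries, where 127 of 12912 genes passed (0.984%), H2-K1 was at 0.35 and did not pass. Me1, the malic enzyme 1 gene, at -1.23 in lymphatic nuclei, did pass in blood endothelial nuclei, at -1.58 ± 0.23 (adjusted p = 0.0379 in edgeR). The 10 tested lymphatic identity genes had a median of -0.004, the 11 junction genes -0.14, the 10 fatty acid genes 0.02, the 7 VEGF-C genes -0.04 and the 14 guidance and matrix genes -0.05. The medians of the 4 tested sinus genes and the 8 tested valve genes lay farther from 0, at 1.23 and -0.31, with 3 of 4 and 3 of 8 positive. Gja1, the connexin 43 gene of lymphatic valves, was at -1.38 ± 0.52 (unadjusted p = 0.025 in edgeR) with overlapping groups, at 118, 216 and 163 CPM in GPSM1ΔTreg and 333, 1142 and 198 CPM in GPSM1f/f.

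A test of the difference between the genotype effect in lymphatic and in blood endothelial nuclei called 5 of 7737 genes (0.0646%; edgeR interaction term), with a median of 0.19 over all tested genes. Por averaged 492 CPM in GPSM1ΔTreg and 43.8 CPM in GPSM1f/f lymphatic nuclei, against 244 CPM in GPSM1ΔTreg and 297 CPM in GPSM1f/f blood endothelial nuclei, a difference of effects of 4.32 ± 0.63 log2 (adjusted p = 6.14e-05 in edgeR). Tox, the gene of an HMG-box factor best known from T cells, averaged 58.7 CPM in GPSM1ΔTreg and 224 CPM in GPSM1f/f lymphatic nuclei, against 129 and 39.2 CPM in blood endothelial nuclei of GPSM1ΔTreg and GPSM1f/f (-3.28 ± 0.60, adjusted p = 0.00413 in edgeR). Blood endothelial nuclei of GPSM1ΔTreg libraries 1, 2 and 3 held 65.0, 64.8 and 257 CPM of Tox. F13a1, the coagulation factor XIII gene of resident macrophages, was at -4.78 ± 0.91, Rhoh, a lymphocyte GTPase gene, at -3.82 ± 0.78 and Hacd2 at 2.50 ± 0.56. Rhoh overlapped between genotypes in lymphatic nuclei, at 58.9, 6.98 and 27.2 CPM in GPSM1ΔTreg and 50.4, 0 and 198 CPM in GPSM1f/f. In blood endothelial nuclei Rhoh was at 86.7, 22.3 and 195 CPM in GPSM1ΔTreg and 10.1, 8.38 and 31.1 CPM in GPSM1f/f. The 10 B cell genes summed there to 474 to 2775 CPM in GPSM1ΔTreg and 88.1 to 508 CPM in GPSM1f/f. The part of lymphocyte transcripts of blood endothelial nuclei in these calls was not tested.

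Single nuclei weighed on these calls. Of 36 F13a1 UMIs in GPSM1f/f lymphatic nuclei, 26 lay in 1 nucleus, and of 108 Hacd2 UMIs in GPSM1ΔTreg lymphatic nuclei, 49 did. With presumed doublets removed, Por was at 2.27 (adjusted p = 0.588 in edgeR), and with the rule at 2 genes it was at 0.09 (adjusted p = 0.9999). Without GPSM1f/f library 2 no gene was called, and without GPSM1f/f library 3 there were 197.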

How the data were processed

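Nuclei of 6 libraries, 3 per genotype, were sequenced. The authors deposited UMI counts per gene and barcode, made with Cell Ranger 7.1 per the submitters' processing notes, which name the builds mm10 and GRCh38. Other deposited files hold gene and barcode names only. Whether intronic reads were counted is not given in the sources used here. Gene identities follow the files, and GENCODE vM21 (mm10) holds 99.8% of their 32285 identifiers.

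UMIs of lymphatic and of blood endothelial nuclei were summed per library. The test was the robust quasi-likelihood test of edgeR 4.0.16, run in R 4.3.3 after filterByExpr and TMM scaling, with Benjamini-Hochberg adjustment over all tested genes. The SE is the log2 fold change over the square root of F. Comparing the nuclei types used the library as a block. Shares were compared by exact permutation of libraries. Scrublet (scanpy 1.11.5) scores marked doublets at 0.8% per 1000 barcodes, which were kept except in the alternative that removes them. On simulated counts for the genotype comparison in lymphatic nuclei (2501 genes), 78.3% of genes changed by 2 log2 units and 98.7% of those changed by 3 were recovered. The simulation gave every gene the same scatter between libraries and had no single nuclei that lead a sum. These shares therefore do not give the power in the data, where Lsamp, at 4.59 ± 1.68 (SE), did not pass.

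Members and lists were chosen with earlier results of these data known. Named genes were, between genotypes, up to 8 each way with unadjusted p under 0.05, no overlap and 50 CPM, since fewer than 12 passed; between nuclei types the 12 largest each way with 100 CPM and 1 direction in 6 libraries; for the interaction all called. Members of the lists are named as well. Some genes that met these rules are not reported here. Alternatives changed the rule, the filters, the doublets, the scaling, the tool and the libraries. Replicate numbers did not pair libraries (correlations of same-numbered libraries -0.15, 0.06 and -0.11).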

Additional observations from a re-analysis of the deposited data

Results flagged for a closer look

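The genotype effect differed between lymphatic and blood endothelial nuclei for 5 genes by an interaction term (edgeR quasi-likelihood, adjusted p at most 0.05). Por had a difference of effects, lymphatic minus blood, of 4.32 on the log2 scale, from 223 UMIs in 20 GPSM1ΔTreg and 5 UMIs in 4 GPSM1f/f lymphatic nuclei, with adjusted p from 2.14e-08 to 0.9999 over 15 alternatives and a call in 11 of them. Hacd2, at 2.50, was called in 5 of 15 alternatives. Tox, at -3.28, had 26 UMIs in 10 GPSM1ΔTreg and 38 UMIs in 12 GPSM1f/f lymphatic nuclei and was called in 11 of 15. F13a1, at -4.78, had 2 UMIs in GPSM1ΔTreg and 36 in GPSM1f/f lymphatic nuclei and was called in 9 of 15. Rhoh, at -3.82, had 15 UMIs in GPSM1ΔTreg and 14 in GPSM1f/f lymphatic nuclei and was called in 9 of 14.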

How the results depend on the processing

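The larger lymphatic share of kept nuclei in GPSM1ΔTreg kept its direction, with an exact p of 0.1, under the other thresholds, filters and denominators planned, and it ranged from 0.209 to 0.317 percentage points with 1 library left out (smallest possible p 0.2). The share of endothelial nuclei ranged from 5.96 to 8.21 points. With nuclei holding at least 2 sinus genes left out, chosen after seeing the data, the share of kept nuclei differed by 0.133 points with overlapping groups. The share of endothelial nuclei was then 5.86, 5.12 and 4.62% in GPSM1ΔTreg and 2.41, 0.329 and 0.301% in GPSM1f/f, without overlap.

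The difference in nuclei with at least 2 sinus genes turned to -1.82 points with 4 rule genes required, to -6.39 with doublets removed, and ranged from -9.27 to 15.2 with 1 library left out. The valve difference turned to -4.62 with 4 rule genes, -1.34 without Ccl21a in the rule, -0.0232 at 1000 genes, -0.515 without nuclei holding lymphocyte genes and -5.61 after thinning to 1000 UMIs, and ranged from -4.53 to 5.47. The cause was not tested.

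Between nuclei types, 1235 genes were lower with no filter on low counts and 1276 in DESeq2, against 667. Leaving out 1 library gave 401 to 554 higher and 547 to 711 lower genes. Between genotypes, 24 genes passed with no filter, 1 in DESeq2 and 0 to 24 with 1 library left out. For the interaction, 19 genes passed with 4 rule genes, 0 with 2, 1 with doublets removed, 49 without nuclei holding lymphocyte genes, 39 with no filter and 0 to 197 with 1 library left out (without GPSM1ΔTreg library 1, 2 or 3, 14, 32 and 37; without GPSM1f/f library 1, 2 or 3, 12, 0 and 197). With 2 rule genes, Por between genotypes was -0.42 and Hacd2 in the interaction -0.15.

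With the replicate number as a replicate block, 0 genes passed between genotypes, and the paired permutation of the lymphatic share (0.253 points) gave an exact p of 0.25. GPSM1f/f libraries 2 and 3, with 5 and 10 nuclei, limit what can be seen.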

Other observations

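Ccl21a was found mostly in nuclei that also had Lyve1. Of 56 nuclei with Ccl21a, 80.4% had Lyve1, against 30.6% of the nuclei without Ccl21a, and 67.9% had Fgl2, against 27.8%. Within GPSM1ΔTreg, Fgl2 was found in 76.9% of nuclei with Ccl21a and 22.9% of those without, and within GPSM1f/f in 47.1 and 44.0%. Lyve1 and Fgl2 themselves went together little, with Fgl2 in 44.9% of nuclei with Lyve1 and 38.4% of those without. Of the 7 nuclei with Ptx3, all in GPSM1ΔTreg libraries, 7 had Lyve1, 5 had Stab2 and none had Marco. The 6 nuclei with Foxc2 all had Pkhd1l1 and none had Stab2. Median UMIs were 3075 with and 2959.5 without Ccl21a. These are counts of nuclei from 6 libraries, given with no test, and Ccl21a and Pkhd1l1 are rule genes.

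Atypical chemokine receptor genes differed in how many nuclei held them, with Ackr3 in 35.4% of the 164. Ackr2, the scavenger of inflammatory CC chemokines, was detected in 21 of 122 GPSM1ΔTreg and 4 of 42 GPSM1f/f lymphatic nuclei, and Ackr4, the scavenger of CCL19 and CCL21, in 12 and 4. Ackr2 was found in 1.4% of blood endothelial nuclei, and Nts, the neurotensin gene, in 12.8% of lymphatic nuclei.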
